A study of Mus musculus with 17 samples.

Results

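Tcf1 binding was mapped in splenic CD8 T cells by chromatin immunoprecipitation and sequencing (ChIP-seq), and 7807 Tcf1 peaks were deposited. Of these, 930 peaks (11.9%, 95% interval 11.2 to 12.7) touched no island of H3K4me3, H3K27ac or H3K27me3 in any of 3 thymocyte groups. They are called unmarked peaks here. An island is an interval that the authors called as enriched in 1 library, and a peak touched it when both shared at least 1 bp. Unmarked peaks were selected on the measured island calls of 9 lists, 1 for each of the 3 marks in each of the 3 groups. The Tcf1 score and H3K9ac played no part in the choice. Peak width was not a criterion, but a wider peak has more chance to touch an island. Unmarked therefore means only that no island was called there in thymocytes. The absence of islands on these peaks was set by this choice and is not a finding.

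The groups are wild-type CD8 thymocytes (WT CD8), CD8 thymocytes of the genotype Tcf1-/-Lef1-/- in which CD4-Cre had removed both factors (DKO CD8), and wild-type CD4 thymocytes (WT CD4). The CD8 thymocytes were sorted as mature cells, high in TCRbeta and negative for CD69 and CD24. WT CD4 samples are CD4 cells by title and source, although their phenotype label names CD8. The Tcf1 library came from wild-type splenic T cells sorted as TCRbeta high and CD8+, with a Tcf1-/- library, also made with CD4-Cre, as its control. CD4-Cre is driven by regulatory sequence of Cd4, so it acts in thymocytes that have switched on that gene and in all cells descended from them. The sources used here give no strain, no age and no number of mice. With 1 library per mark in each group there was no replicate to test against, so p-values are left out. The intervals printed cover counting error alone. Peaks and marks also come from different organs, and chromatin of splenic cells at these peaks was not measured.

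Tcf1, encoded by Tcf7, is a DNA-binding protein of the TCF/LEF family with an HMG box. It is needed early in the thymus for T cell development, and in mature CD8 cells it is known for its part in memory formation and in keeping cells capable of self-renewal. Nucleosomes at active promoters usually carry H3K4me3 with H3K27ac and H3K9ac. Active enhancers usually carry H3K27ac without H3K4me3, and H3K27me3 is laid down by Polycomb complexes at silenced genes. A peak without these marks can be described by what the choice did not use as a criterion: the peak itself, the fourth mark H3K9ac, and its surroundings.

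Reads within islands ranged from 248234 (WT CD8 H3K9ac) to 4025243 (WT CD4 H3K27me3) per library, and the 12 histone lists covered from 11.5 to 142 Mb each. The smallest islands held 9 to 15 reads. A region with fewer reads than that could not be called in the corresponding library, so a mark below this level was not detectable. Several histone libraries, which ones the labels do not say, were sequenced a second time with longer reads. The 3 groups excluded different numbers of peaks. In WT CD8, 2812 peaks lay outside islands of the 3 marks, against 1742 in DKO CD8 and 1209 in WT CD4. Of the 2812 peaks outside in WT CD8, 1173 touched islands of both other groups, 549 of WT CD4 alone and 160 of DKO CD8 alone, and the unmarked peaks made up 33.1%. The unmarked peaks were 76.9% of those outside in WT CD4, the highest such share of the 3 groups. A single list, H3K27ac of WT CD4, alone accounted for the exclusion of 469 peaks, and without it 1399 peaks would be unmarked.

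Unmarked peaks had lower scores and were narrower than Tcf1 peaks as a whole. Their median score was 64.42 (95% interval 62.57 to 66.05; quartiles 55.8 and 91.3), against 76.41 for all peaks. The score is the authors' own value per peak, has a minimum of 50 in this list, and is used here only to rank peaks. The 3067 peaks with H3K27ac in any group and no H3K4me3, called the H3K27ac class and marked as enhancers usually are, had the highest median score of the classes, 85.15 (82.82 to 87.83). The 2131 peaks with H3K4me3 in all 3 groups, called the H3K4me3 class and marked as promoters usually are, had 75.63 (73.59 to 77.47). Only the 190 peaks with H3K27me3 and no other of the marks came close to the unmarked ones, with a median of 66.45 (63.63 to 70.30).

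Widths were further apart. Unmarked peaks had a median width of 255 bp (244 to 263) and the widest measured 704 bp, whereas the medians were 399 bp (391 to 407) for peaks of the H3K27ac class and 508 bp (497 to 521) for the H3K4me3 class. Peaks with H3K27me3 alone had a median of 283 bp (251 to 310), and this interval overlaps that of the unmarked peaks. A wider peak reaches more sequence and so more islands. With every peak replaced by a window of 400 bp on its centre, 911 peaks were unmarked and their called width had a median of 257 bp, against 401 bp for the H3K27ac class. Within 72 bp of an island lay 29 unmarked peaks. This is the reach that the difference in median width from the H3K27ac class adds on each side. How far reach accounts for the difference in width was not tested. Score and width rose together among unmarked peaks (Spearman's rho 0.66 across 930 peaks, which are not independent replicates), and also in the H3K27ac class (0.63).

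**Figure D1:**
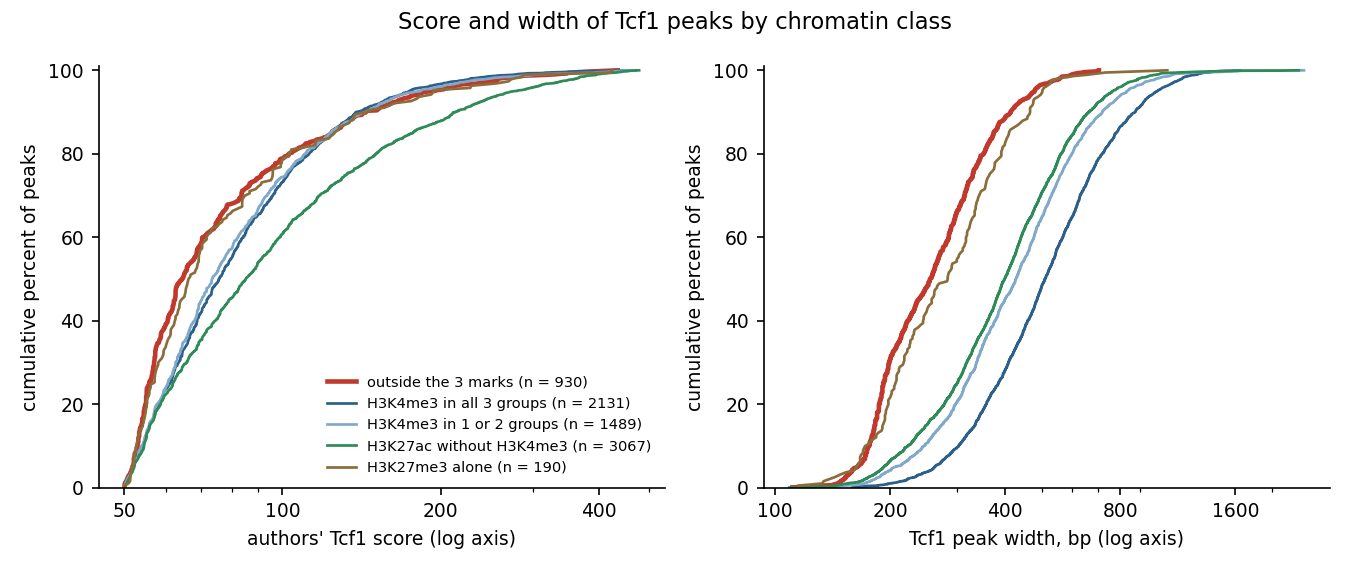
Cumulative percent of Tcf1 peaks by the authors' score (left) and by peak width in bp (right), both on log axes, with 1 line for each chromatin class. The red line of the 930 unmarked peaks lies to the left of the lines of the H3K4me3 and H3K27ac classes, by a wider margin for width (median 255 bp) than for score (median 64.42), and next to the line of the H3K27me3 class.

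Within bins of score the unmarked peaks were also narrower than peaks of the H3K27ac class. With all peaks split by score into 4 bins of equal size, the median width in the lowest bin was 194 bp for 359 unmarked peaks and 272 bp for 679 peaks of the H3K27ac class. In the second bin the medians were 246 and 328 bp, and in the third 296 and 406 bp. In the highest bin 163 unmarked peaks had a median of 379 bp, and 1020 peaks of the H3K27ac class had 524.5 bp. The order of widths was thus the same in each of the 4 bins, with no interval given for the difference. Scores were binned and not matched. The median score was 54.7 for unmarked peaks and 54.74 for the H3K27ac class in the lowest bin, and 155.4 and 166.1 in the highest. With peaks split by width into 4 such bins, the median scores in the narrowest were 58.7 for unmarked peaks and 58.96 for the H3K27ac class. In the second they were 88.4 and 79.3, in the third 137.2 and 108.4, and in the widest 159.8 and 146.15. Only 21 unmarked peaks were in the widest bin. Unmarked peaks thus scored about the same as the H3K27ac class in the narrowest bin and higher in the wider bins, with no interval given.

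The share of peaks that were unmarked fell with score and then levelled off. It was 17.8% (15.2 to 20.7) in the lowest of 10 bins of equal size by score and 20.6% (17.8 to 23.6) in the second, and fell to 6.67% (5.02 to 8.65) in the eighth bin. In the ninth it was 9.73% (7.74 to 12.03) and in the highest 8.19% (6.37 to 10.3), so the intervals of the upper 3 bins overlap. By width the share fell throughout. It was 44.0% (40.5 to 47.6) in the narrowest of 10 bins, of peaks between 109 and 215 bp. In the widest bin it was 0 of 781 peaks, with an upper limit of 0.471% on the exact 95% interval. A wider peak has more chance to touch an island, and how far this accounts for the fall by width was not tested. Of the unmarked peaks 38.6% were in the lowest of 4 bins by score and 17.5% in the highest. The set therefore held a minority of strong peaks beside many that lay close to the minimum score.

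**Figure D2:**
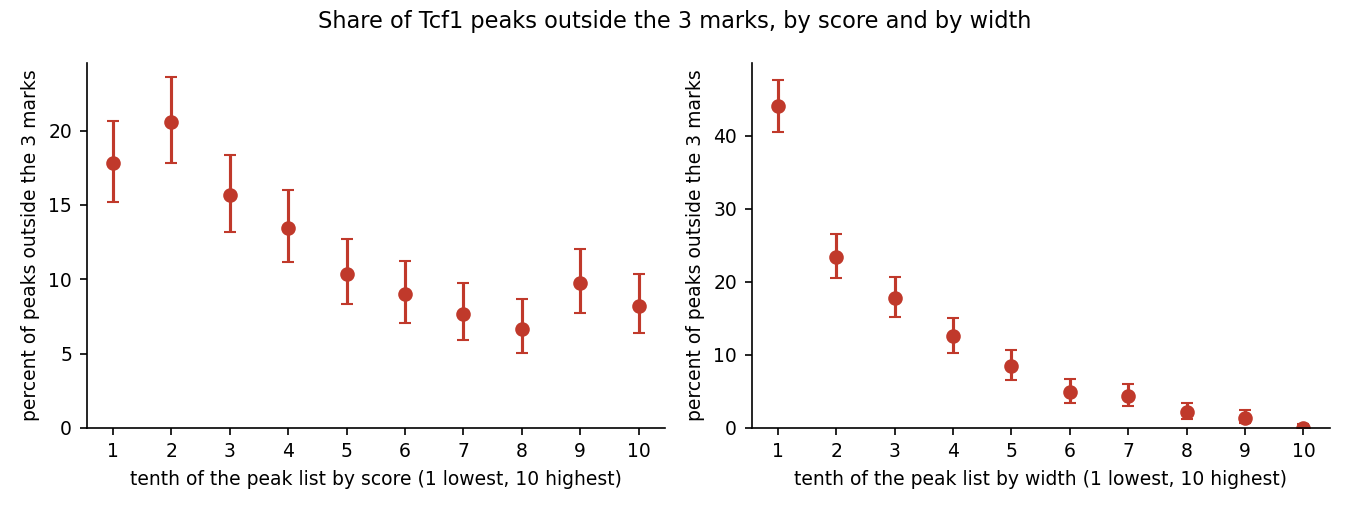
Percent of Tcf1 peaks that lay outside the 3 marks, in 10 bins of equal size in order of score (left) and of width (right). Points are shares with exact 95% intervals. By score the share falls from 17.8% in the lowest bin to 6.67% in the eighth and stays below 10% in the upper 2, and by width it falls from 44.0% to 0.

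H3K9ac, a mark of active promoters and enhancers, was not used in the choice. Of the 930 unmarked peaks, 2 touched an H3K9ac island of WT CD8, 3 one of DKO CD8 and 13 one of WT CD4, while 23.0%, 28.5% and 49.6% of all 7807 peaks did so. As shares of the unmarked peaks these are 0.215% (0.0261 to 0.775), 0.323% (0.0666 to 0.940) and 1.398% (0.746 to 2.38). Peaks of the H3K27ac class, which also lacked H3K4me3, had H3K9ac islands at 4.99% in WT CD8 (4.25 to 5.82), 6.59% in DKO CD8 (5.73 to 7.52) and 22.2% in WT CD4 (20.7 to 23.7). In each group the intervals of the unmarked peaks and the H3K27ac class did not overlap. Peaks with H3K27me3 alone had 0.526% in WT CD8 (0.0133 to 2.90), 1.05% in DKO CD8 (0.128 to 3.75) and 3.68% in WT CD4 (1.49 to 7.44). These intervals overlap those of the unmarked peaks, so a low share was not particular to unmarked peaks. Across the 3 groups together, 18 unmarked peaks (1.94%, 1.15 to 3.04) touched an H3K9ac island, beside 52.1% of all peaks and 25.7% of peaks of the H3K27ac class. Of peaks with H3K27me3 alone, 5.26% (2.55 to 9.47) did so.

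Most H3K9ac islands lay on islands of the 9 lists, so the choice itself lowers their number at unmarked peaks. The islands of H3K9ac outside the 9 lists were 22.9% of those in WT CD8 (2260 islands), 11.3% of those in DKO CD8 (735) and 35.9% of those in WT CD4 (11716). A closer reference is the rest of the genome that also lacks the 3 marks. Of all windows of 255 bp that touched none of the 9 lists, 0.204% touched an H3K9ac island in WT CD8, 0.110% in DKO CD8, 0.960% in WT CD4 and 1.26% in any group. The shares of unmarked peaks with H3K9ac had intervals that held the window value in WT CD8, DKO CD8, WT CD4 and any group. A difference in H3K9ac between unmarked peaks and other places without the 3 marks was therefore not detectable with this number of peaks. The windows spanned all sequence between the outermost islands. Places where reads cannot be mapped were not removed, which may lower the window values.

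**Figure D3:**
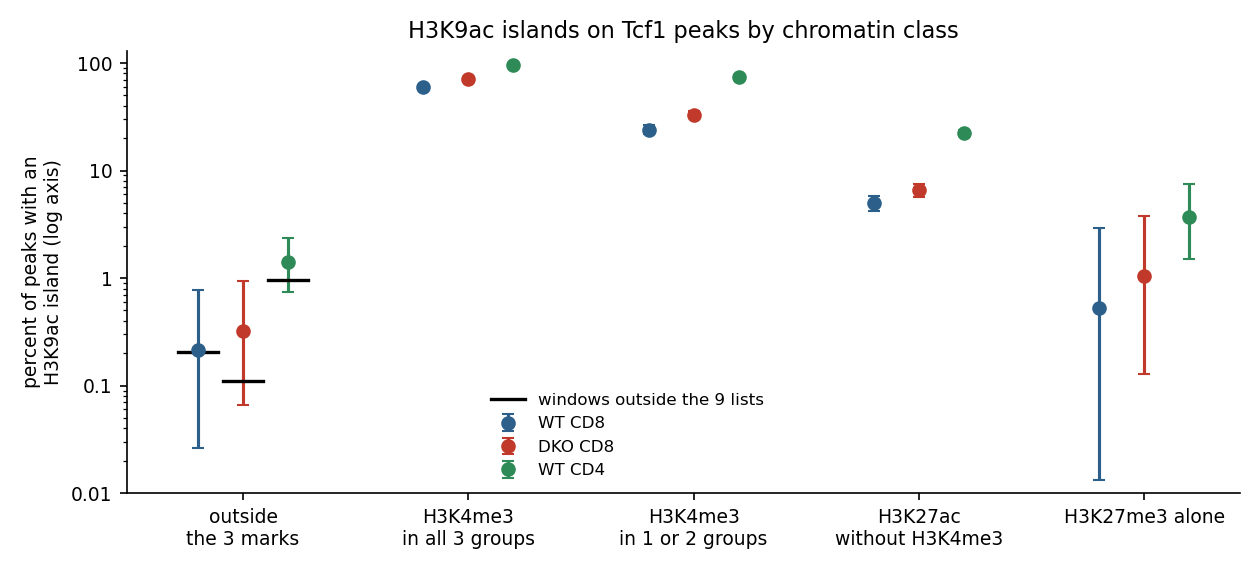
Percent of Tcf1 peaks that touched an H3K9ac island (log axis), by chromatin class and thymocyte group, with exact 95% intervals; black bars give the percent of windows of 255 bp outside the 9 lists that did so. The unmarked peaks, at 0.215% to 1.398%, lie near the black bars and below the H3K4me3 and H3K27ac classes in every group.

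None of the 18 unmarked peaks with H3K9ac had it in more than 1 group. The one with the highest score was, in coordinates of the mm9 build, chr7:130115466-130115906 (score 272.9), where a WT CD8 H3K9ac island of 47 reads overlapped the peak by 135 bp. That peak lay 665 bp from an H3K4me3 island of DKO CD8 with 73 reads, and all 3 groups had H3K4me3 and H3K27ac islands within 1065 bp of it. At chr15:79559354-79559851 (score 123.44) a WT CD8 H3K9ac island of 18 reads overlapped by 47 bp, and the nearest island of the 3 marks, WT CD8 H3K4me3, was 749 bp away. The peaks chr14:122968181-122968291 (score 136.48) and chr14:53549113-53549483 (score 136.27) lay wholly within WT CD4 H3K9ac islands, of 26 and 19 reads. They were 7180 and 8112 bp from any island of the 3 marks. The peak chr6:34945276-34945688 (score 88.96) lay within a WT CD4 H3K9ac island of 29 reads, 512 bp from a WT CD8 H3K4me3 island of 13 reads. Over all 18 peaks the H3K9ac islands held 15 to 47 reads.

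The strongest unmarked peaks had varied surroundings. The highest score was 435.16, at chr2:3627732-3628284. Its nearest H3K27ac islands were 2516 bp away in WT CD8 and 2116 bp away in both DKO CD8 and WT CD4, and its nearest H3K4me3 islands were 2316 to 2516 bp away. All 3 groups thus had islands of both promoter marks at about the same distance from this peak, and the nearest of them held 239 reads.

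The second, chr2:173680407-173680784 (score 415.83), lay 206 bp from an H3K27ac island of WT CD4 with 33 reads and 406 bp from one of DKO CD8, but 69006 bp from any of WT CD8. Its H3K4me3 islands were 26406 bp away or more. The third, chr19:11430218-11430775 (score 400.22), had H3K27ac islands close by in every group, 625 bp in WT CD8, 417 bp in DKO CD8 and 425 bp in WT CD4, with H3K4me3 islands no nearer than 14417 bp. These 2 peaks have H3K27ac beside the peak and H3K4me3 far from it.

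At chr12:72041761-72042133 (score 381.12) H3K27ac islands were 4867 bp away in WT CD8, 2360 bp in DKO CD8 and 2160 bp in WT CD4. The peak chr10:82350040-82350516 (score 367.29) had them at 2084, 1884 and 2084 bp in the same order, and chr5:66295732-66296118 (score 337.26) at 2731, 1331 and 1731 bp. At these sites the groups had H3K27ac within 5 kb of the peak in each case.

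At some strong peaks H3K27ac islands were more than 5 kb away in every group. At chr9:120705130-120705833 (score 357.06), as wide as any unmarked peak at 704 bp, the nearest H3K27ac islands were 11567 bp away in WT CD8, 8967 bp in DKO CD8 and 17529 bp in WT CD4. The nearest island of any of the 3 marks there was WT CD8 H3K4me3 at 4329 bp, with 10 reads. At chr9:88274909-88275339 (score 347.83) H3K27ac islands were 49108, 13308 and 48508 bp away, and the nearest island was H3K27me3 of WT CD4 at 861 bp, with 56 reads. The peak chr12:70964473-70964874 (score 318.53) was also nearest to WT CD4 H3K27me3, at 1526 bp, with WT CD8 and DKO CD8 H3K27me3 at 4872 and 4672 bp. Its H3K27ac islands were 5072 bp away in WT CD8, 13526 bp in DKO CD8 and 28126 bp in WT CD4. H3K27me3, the Polycomb mark, was thus the closest of the 3 marks for 2 of the 12 highest-scoring unmarked peaks named here.

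The remaining 3 of these 12 were chr8:37091380-37091857 (score 329.59), chr15:63899090-63899556 (score 304.03) and chr11:87886759-87887306 (score 287.53). For the first of them the nearest H3K27ac islands were 11543, 10979 and 8379 bp away in WT CD8, DKO CD8 and WT CD4, and a WT CD4 H3K9ac island lay at 1979 bp. For the second they were 6644, 5689 and 3444 bp away, and for the third 5358, 3758 and 3758 bp. None of the 12 touched an H3K9ac island. Peaks on chromosome 18 were left out of the naming.

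**Figure D4:**
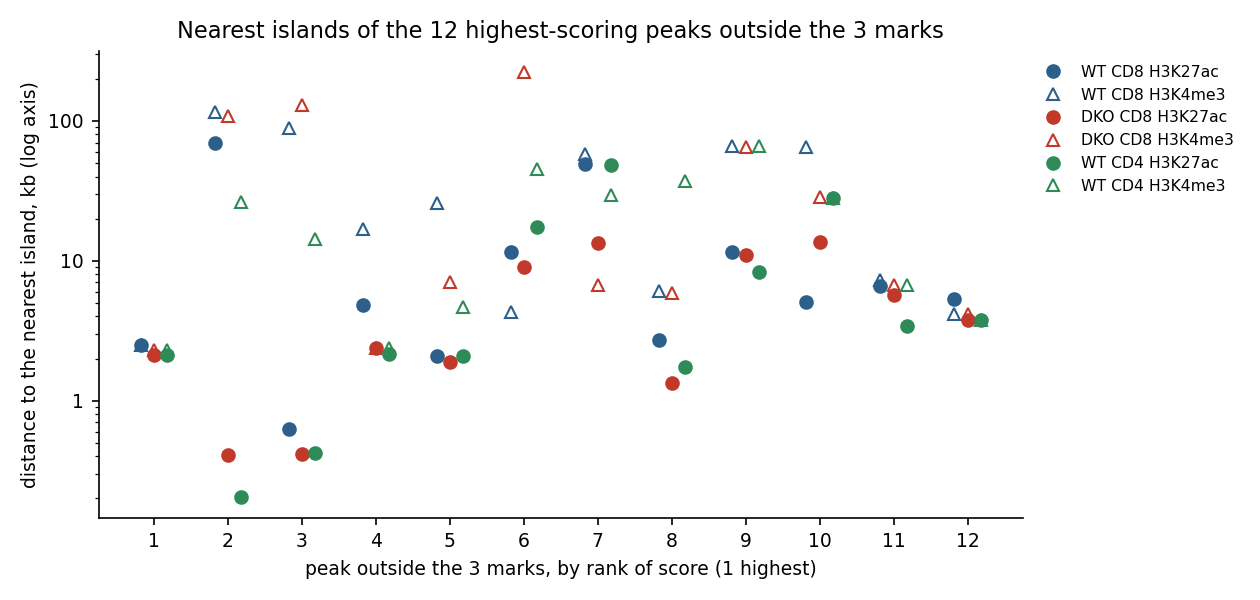
Distance in kb (log axis) from each of the 12 highest-scoring unmarked peaks to the nearest H3K27ac island (filled circles) and H3K4me3 island (open triangles) in each thymocyte group. Ranks 2 and 3 have H3K27ac within 1 kb in 2 and 3 of the groups, while ranks 6, 7, 9 and 10 have H3K27ac islands over 5 kb away in every group.

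Over all unmarked peaks, the nearest island of the 9 lists lay at a median distance of 2862.5 bp (2548 to 3145), with quartiles of 945 and 7351 bp and a range from 5 to 60055 bp. It was an H3K27ac island for 527 peaks (56.7%), an H3K4me3 island for 209 (22.5%) and an H3K27me3 island for 194 (20.9%). H3K27me3 lists covered 96.1 to 142 Mb, more than the H3K27ac lists with 59.1 to 83.5 Mb. The number of islands per list was 24476 to 56985 for H3K27ac, 23933 to 34756 for H3K27me3 and 23411 to 42013 for H3K4me3. Distance depends on number and cover alike, so these shares are not read as a preference for 1 mark. Within 1 kb of an island were 240 unmarked peaks (25.8%), a further 374 were within 5 kb, 154 within 10 kb, and 162 (17.4%) were more than 10 kb from any. Distance had almost no relation to score across unmarked peaks: Spearman's rho was -0.02 across the 930 peaks, and the median distance was 2680 bp in the lowest of 4 bins by score and 2651 bp in the highest.

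By mark, with the 3 groups together, the median distance was 5108.5 bp to H3K27ac (4559 to 5711), 10537.5 bp to H3K4me3 (9657 to 11431), 13314 bp to H3K9ac (12248 to 14740) and 19197 bp to H3K27me3 (16390 to 21790). Peaks of the H3K27ac class likewise touch no H3K4me3, and their median distance to it was shorter, 7916 bp (7441 to 8435). More than 10 kb from H3K4me3 were 52.0% of unmarked and 42.9% of peaks of the H3K27ac class. To H3K9ac the medians were further apart, with 4250 bp (3771 to 4913) for the H3K27ac class. Of the H3K27ac class 25.7% touched an H3K9ac island, against 1.94% of unmarked peaks. Most H3K9ac islands lay on islands of the 9 lists, so the choice kept unmarked peaks off them. The gap between these medians is thus partly set by the choice. To H3K27me3 the 2 classes had intervals that overlapped, with 18386 bp (17271 to 19612) for peaks of the H3K27ac class. Peaks of that class may touch H3K27me3 and unmarked peaks may not, so the 2 medians are not a like comparison.

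For H3K27ac the median distances in the 3 groups had overlapping intervals. They were 11238 bp in WT CD8 (10144 to 12212), 11339 bp in DKO CD8 (9990 to 12567, 929 peaks) and 13015.5 bp in WT CD4 (11288 to 15060). The DKO CD8 H3K27ac list had no island on chromosome Y, so 1 unmarked peak has no distance there. For H3K4me3 the medians were 17282.5 bp in WT CD8, 28807.5 bp in DKO CD8 and 20966 bp in WT CD4, in the order of the number of islands in these lists (42013, 23411 and 28449). The number of islands in a list and the group cannot be told apart here, so these values are not read as differences between the groups.

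Island cover around the unmarked peaks was measured in bands from the peak edge and divided by the share of the sequence between the outermost islands that each list covered. Places where reads cannot be mapped were not removed from that sequence. For H3K27ac, cover rose from 0.86-fold within 1 kb to 3.03-fold at 5 to 10 kb in DKO CD8, and from 1.02-fold to 3.22-fold in WT CD4. It was still 2.34-fold and 2.50-fold at 50 to 100 kb. In WT CD8 it rose from 0.46-fold to 1.33-fold at 5 to 10 kb. Unmarked peaks thus lay in stretches richer in H3K27ac islands than the sequence as a whole. This was not particular to them. Around the H3K4me3 class, cover at 5 to 10 kb was 1.29-fold in WT CD8, 2.92-fold in DKO CD8 and 3.21-fold in WT CD4. Around peaks with H3K27me3 alone it was 1.09-, 2.44- and 2.62-fold. The H3K27ac lists differ in size, so these values are not read as differences between the groups. The cover next to the peak is lowered by the choice itself.

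Peaks of the H3K27ac class lay in still richer stretches. At 5 to 10 kb their H3K27ac cover was 2.93-fold in WT CD8, 7.69-fold in DKO CD8 and 8.44-fold in WT CD4, and at 50 to 100 kb 1.59-, 3.69- and 3.86-fold. H3K4me3 cover at 5 to 10 kb was 1.27-fold in WT CD8, 1.37-fold in DKO CD8 and 1.66-fold in WT CD4 around unmarked peaks, and 1.63-, 2.25- and 2.43-fold around the H3K27ac class. H3K9ac cover in the same band was 2.18-, 2.53- and 1.77-fold around unmarked peaks. H3K27me3 cover in that band was 0.72-fold in WT CD8, 1.103-fold in DKO CD8 and 1.21-fold in WT CD4, so it lay on both sides of the level of the sequence as a whole.

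**Figure D5:**
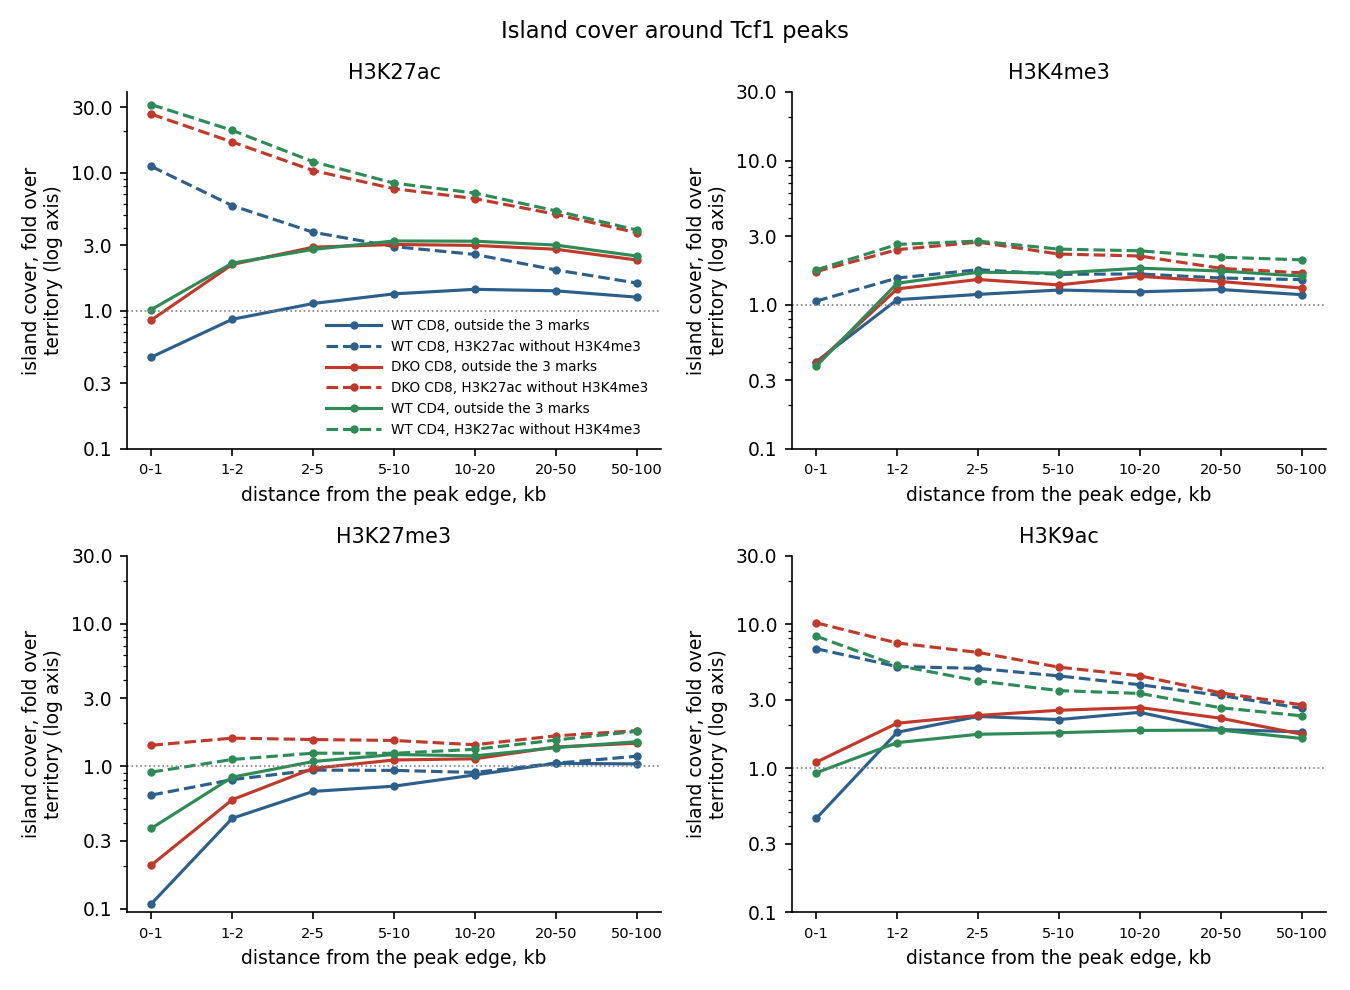
Share of sequence covered by islands of each mark in bands of distance from the peak edge (kb), as fold over the share covered in the whole territory (log axis, dotted line at 1), for unmarked peaks (solid) and peaks of the H3K27ac class (dashed) in each group. H3K27ac cover around unmarked peaks climbs to 3.03-fold in DKO CD8 and 3.22-fold in WT CD4 at 5 to 10 kb and stays below that of peaks of the H3K27ac class in every band.

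The share of unmarked peaks with a second Tcf1 peak nearby was below that of the H3K27ac class. Another Tcf1 peak lay within 10 kb of 178 of them (19.1%, 16.7 to 21.8), while 32.5% of all peaks and 42.6% of peaks of the H3K27ac class (40.8 to 44.4) had one. Of the peaks with H3K27me3 alone, 14.2% (9.58 to 19.998) had one, and this interval overlaps that of the unmarked peaks. The gap to the next Tcf1 peak had a median of 45824 bp (39507 to 51130), against 14946 bp (13740 to 16197) for the H3K27ac class and 47248.5 bp (35679 to 60056) for H3K27me3 alone. The share with a neighbour was 25.8% (20.4 to 31.9) for unmarked peaks up to 1 kb from an island and 7.41% (3.89 to 12.6) for those over 10 kb away. Tcf1 peaks of the other classes touch an island by definition, so they can hardly lie within 10 kb of the latter. This fall is thus largely set by the choice and is not read as a result. Of the 178 nearest neighbours, 75 were of the H3K27ac class, 47 were themselves unmarked, 39 were of the H3K4me3 class, 16 had H3K4me3 in 1 or 2 groups and 1 had H3K27me3 alone. The unmarked ones made up 26.4% of these neighbours and 11.9% of all peaks. The other classes likewise had more neighbours of their own class than its share of all peaks: 74.2% against 39.3% for the H3K27ac class, 50.7% against 27.3% for the H3K4me3 class, 35.4% against 19.1% for H3K4me3 in 1 or 2 groups, and 22.2% against 2.43% for H3K27me3 alone.

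With places joined over gaps of up to 10 kb, 881 unmarked peaks stood alone, 46 formed 23 pairs and 3 formed 1 group. That group was on chromosome 3, 127565576 to 127578980, where a peak of score 208.28 and 704 bp lay between peaks of 56.32 and 56.22. On chromosome 15, from 78346130 to 78346650, peaks of score 131.39 and 220.42 lay within 0.521 kb, and on chromosome 2, from 76259024 to 76259903, peaks of 64.70 and 247.98 lay within 0.880 kb. Peaks this close may share sequenced fragments and are not independent of one another.

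Chromosomes differed in the share of their peaks that were unmarked. On the autosomes it ranged from 7.69% on chromosome 8 (29 of 377, 5.21 to 10.9) to 19.4% on chromosome 14 (55 of 284, 14.9 to 24.4). On chromosome X it was 13 of 59 peaks (22.0%, 12.3 to 34.7). Over the 19 autosomes, unmarked peaks ranged from 0.225 to 0.522 per Mb, and peaks of the H3K27ac class from 0.741 to 2.05. The density of unmarked peaks followed the H3K27ac cover of WT CD4 along the autosomes with a Spearman's rho of 0.50, against 0.94 for peaks of the H3K27ac class and 0.99 for all peaks. These are descriptions over 19 chromosomes that share a length as denominator, and the choice itself removed peaks on H3K27ac.

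The 5 unmarked peaks farthest from any island of H3K4me3, H3K27ac or H3K27me3 had scores from 55.19 to 134.37. At chr5:35165456-35165766 (score 134.37) the nearest island of the 3 marks was 60055 bp away and the nearest H3K9ac island 54455 bp. At chr4:7914589-7914769 (score 55.19) the distance was 59988 bp, at chr15:61313448-61313775 (55.78) 56225 bp, at chr2:75721638-75721951 (70.30) 50637 bp, and at chrX:50032357-50032585 (91.27) 48556 bp. An H3K9ac island of WT CD4 was nearer to some of them, at 8631 bp from the chromosome 4 peak and 13837 bp from the chromosome 2 peak. The nearest H3K9ac island was 149825 bp from the chromosome 15 peak and 232415 bp from the X peak. Among the 162 peaks over 10 kb away the median score was 62.57 (60.36 to 66.01) and the highest 263.17, and the median width was 228 bp (207 to 252). Within 1 kb of an island the medians were 64.82 (62.09 to 69.24) and 270.5 bp (254 to 294). The scores thus overlapped, while widths were lower far from islands.

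The edge of the choice separated peaks by a few bp. The unmarked peaks nearest to an island were chr10:92533206-92533569 (score 56.64), 5 bp from a WT CD4 H3K27ac island of 31 reads, and chr2:131147209-131147367 (59.69), 8 bp from one of 21 reads. At chr19:3730948-3731591 (156.39) a WT CD4 H3K4me3 island of 18 reads was 9 bp away, at chr15:99474230-99474589 (141.68) a DKO CD8 H3K27ac island of 18 reads was 11 bp away, and at chr11:6087616-6088198 (102.56) a WT CD8 H3K27ac island of 14 reads was 15 bp away. Just outside the choice, chr9:31078748-31079404 (score 420.10) overlapped a WT CD4 H3K27me3 island by 4 bp and chr19:47957002-47957407 (157.44) a WT CD4 H3K27ac island by 7 bp. The next were chr2:152968587-152968888 (67.14), chr16:78596185-78596419 (83.80) and chr13:21802701-21803016 (67.71), with overlaps of 14, 16 and 16 bp. Each of these peaks touched a single list.

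In all, 742 peaks touched only 1 of the 9 lists, and their median score was 75.5 and their median width 318.5 bp, between those of the unmarked peaks and the H3K27ac class. For 469 of them the list was WT CD4 H3K27ac, and these islands held a median of 52 reads, against 152 reads for WT CD4 H3K27ac islands at peaks with other islands too. For 127 it was DKO CD8 H3K27ac (31 reads against 112), and for 40 WT CD8 H3K27ac (19 against 42). Islands that alone kept a peak from being unmarked thus held fewer reads than islands of the same H3K27ac list at peaks with other islands too. Their median reads per kb were nearer to those of the whole list. They were 23 against 28.2 in WT CD4, 19 against 22.9 in DKO CD8 and 20.4 against 23.3 in WT CD8. The unmarked peaks of lowest score, chr11:46090289-46090499, chr6:134853499-134853692 and chr14:122440610-122440803, had scores of 50, 50.01 and 50.02, at the minimum of the list.

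An island of more than 1000 reads lay within 10 kb of 8 unmarked peaks (0.860%), and of 3.996% of all Tcf1 peaks. The second share includes peaks that lie on such islands, which the choice removed from the unmarked peaks, so nothing is read from the difference.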

How the data were processed

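Tools named in the submitters' processing notes are SICER 1.1, MACS 1.4.2, Bowtie2 2.2.5 and FastQC, and the build is mm9; the notes do not say which tool made which file. The unit of the deposited histone files is the raw count of reads in each island. The deposited Tcf1 file holds a score for each peak. Of 17 samples, 13 files were used, 12 for histone marks and 1 for Tcf1. Input DNA (3 samples) and the control library from Tcf1-deficient cells were not analysed here. Sequencing depth is known only as reads within islands. Coordinates are mm9, 1-based. An mm9 genome and annotation were not used here, so sequence under the peaks, motifs, genes and the deletion of Tcf7 and Lef1 were not analysed here.

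Overlap needed 1 bp. Shares have exact Clopper-Pearson intervals at 95%, and medians have exact binomial order-statistic intervals at 95%. Libraries per group number 1, so nothing was tested. Regions were named by rule, leaving out chromosome 18: the 12 unmarked peaks of highest score, the 5 with H3K9ac in most groups, the 5 farthest from and nearest to an island, the 5 others of smallest overlap, the 3 densest places and the 3 lowest scores. Members and rules were chosen with earlier results of these data known. Computation used pandas 2.3.3 and numpy 2.4.6 under Python 3.11.15, with intervals from SciPy 1.17.1 and plots from matplotlib 3.10.9. Overlap was tested on simulated data, and bedtools 2.31.1 gave the same 930 peaks.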

Additional observations from a re-analysis of the deposited data

How the results depend on the processing

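Leaving out any 1 of the 9 lists kept the number of unmarked peaks between 934 and 1057, except that without WT CD4 H3K27ac it was 1399. With only islands above the median reads per bp of their list, 1846 peaks were unmarked, with a median score of 69.76, a median width of 292 bp, a median of 18710.5 bp to H3K4me3, H3K9ac at 4.39% and a Tcf1 neighbour at 22.4%. With islands of WT CD8 only the same values were 2812 peaks, 71.015, 316 bp, 15407.5 bp, 13.9% and 27.3%. The H3K9ac share counts islands of any group, including groups left out of the choice. Counting WT CD8 H3K9ac islands alone, it was 1.96%, against 0.215% of the 930 peaks. With islands of DKO CD8 only, chosen after seeing the data, the same values were 1742 peaks, 69.64, 286 bp, 27268.5 bp, 5.28% and 23.0%. Counting DKO CD8 H3K9ac islands alone, the H3K9ac share was 0.459%, against 0.323% of the 930 peaks. With islands of WT CD4 only, also added, 1209 peaks were unmarked. Width (264 bp), distance to H3K4me3 (20138 bp) and H3K9ac (3.06%) left the interval of the main value, and the cause was not tested. Counting WT CD4 H3K9ac islands alone, the H3K9ac share was 1.90%, against 1.398% of the 930 peaks. With peaks above the median score, 322 were unmarked (score 112.78, 336.5 bp, 11859.5 bp to H3K4me3, 22.98% with a neighbour). With peaks no wider than the median, added later, score was 62.44 and width 235.5 bp. Peaks widened by 1000 bp gave 11899 bp to H3K4me3, and an overlap of at least 50% of the peak gave H3K9ac at 3.14%. H3K9ac was at 6.99% within 1000 bp and at 0.753% with the denser H3K9ac islands. A Tcf1 neighbour was found at 10.97% within 5 kb and 52.6% within 50 kb. Of the 68 alternative values in all, 33 stayed within the interval of the main value or within 1.5 times the main count. In each of the 5 alternatives where both classes were compared, unmarked peaks had the lower score, the smaller width, less H3K9ac and fewer neighbours than peaks with H3K27ac and no H3K4me3. Peaks were not binned by width in these comparisons. Of the 12 highest-scoring unmarked peaks, 9 stayed unmarked when widened by 1000 bp, and 4 were no wider than the median. All 12 stayed under the other settings tried, but most of these could not remove any of them. Fewer islands or a stricter overlap can only add unmarked peaks, a cut on score keeps the highest, and none of the 12 touched H3K9ac. Nothing is read from their staying under those settings. Motifs and start sites were planned and not run, for want of an mm9 genome and annotation. No paired analysis was possible because each group has 1 library.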
